A study of Mus musculus with 8 samples.

Results

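The genes of MHC class I antigen presentation and of the immunoproteasome were examined in mouse bone marrow-derived macrophages (BMDM) exposed to bilirubin. The 10 genes were picked by symbol for their role in the pathway, with earlier results of these data known. All 10 were found among the 53819 gene symbols of the count table. All 10 also passed the filter on low counts, which left 13722 genes tested, and the lowest count of any of them in any library was 594. Bone marrow of female BALB/cJ mice aged 8 weeks was differentiated for 5 days with 25 ng/mL M-CSF, the growth factor that drives macrophage development. The BMDM then received 2.5 µM bilirubin, the end product of heme breakdown, or the DMSO vehicle, and RNA was taken after 48 h. There was a vehicle culture and a bilirubin culture from each of 4 mice, and the labels name no engineered allele. Poly A selected RNA was sequenced, and the comparison asks how bilirubin alters gene expression in macrophages.

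MHC class I molecules display peptides from the inside of a cell to CD8+ T cells. Proteasomes cut proteins into peptides, the TAP transporter moves the peptides into the endoplasmic reticulum, and tapasin helps to load them onto a heavy chain held by beta-2 microglobulin. Inflammatory signals such as interferon-gamma raise most of these genes together in macrophages, and exchange the catalytic subunits of the standard proteasome for those of the immunoproteasome.

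Libraries held between 34142781 and 47071714 counts on genes, and mouse 1 had both the largest library (vehicle) and the smallest (bilirubin). All 7 macrophage markers examined were expressed, with a summed level of 23910 to 24190 CPM (counts scaled for library size by the TMM method) in vehicle cultures and 28230 to 30240 in bilirubin cultures. *Lyz2*, which holds most of that sum, *Adgre1* and *Itgam* rose, by 0.35, 0.42 and 0.26 on the log2 scale. The other 4 did not pass the test, with log2 fold changes of -0.015 (*Csf1r*), -0.16 (*Cd68*), -0.20 (*Fcgr1*) and -0.40 (*Mrc1*), and the median of the list was -0.015. Dendritic cell markers, which bear on these genes because dendritic cells also present antigen, were close to 0: no gene of that list exceeded 22 counts in a library, and *Flt3*, *Xcr1*, *Clec9a*, *Siglech* and *Cd209a* had 3 counts or fewer in all 8 libraries. Markers of B cells, T and NK cells, neutrophils, erythroid cells and mast cells did not exceed 43 counts, and those of stroma and endothelium did not exceed 124. The part of these marker differences in the results on the 10 genes was not tested, and in bulk RNA a change in the number of cells cannot be told apart from a change in the RNA per cell.

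The genes encoding the surface molecule and its peptide editor were higher with bilirubin, whereas those encoding the transporter, the immunoproteasome and the transactivator did not pass the test. In edgeR's quasi-likelihood test with the mouse as a block, *H2-K1*, *H2-D1*, *B2m* and *Tapbp* rose, by 1.21-fold to 1.36-fold, and none of the 10 genes fell. That is 4 of 10 genes, beside 7.53% of all tested genes called in either direction, 4.49% called higher and 3.04% called lower. Because the 10 genes were chosen with earlier results of these data known, the shares in this paragraph are a description. The median log2 fold change was 0.14 over the 10 genes and -0.00181 over all tested genes. The same 4 genes had all 4 bilirubin cultures above all 4 vehicle cultures, beside 5.93% of all tested genes with that pattern. Among all tested genes 616 rose and 417 fell, and with scaling by library size alone the split was 527 and 556, with the same 4 genes called.

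**Figure D1:**
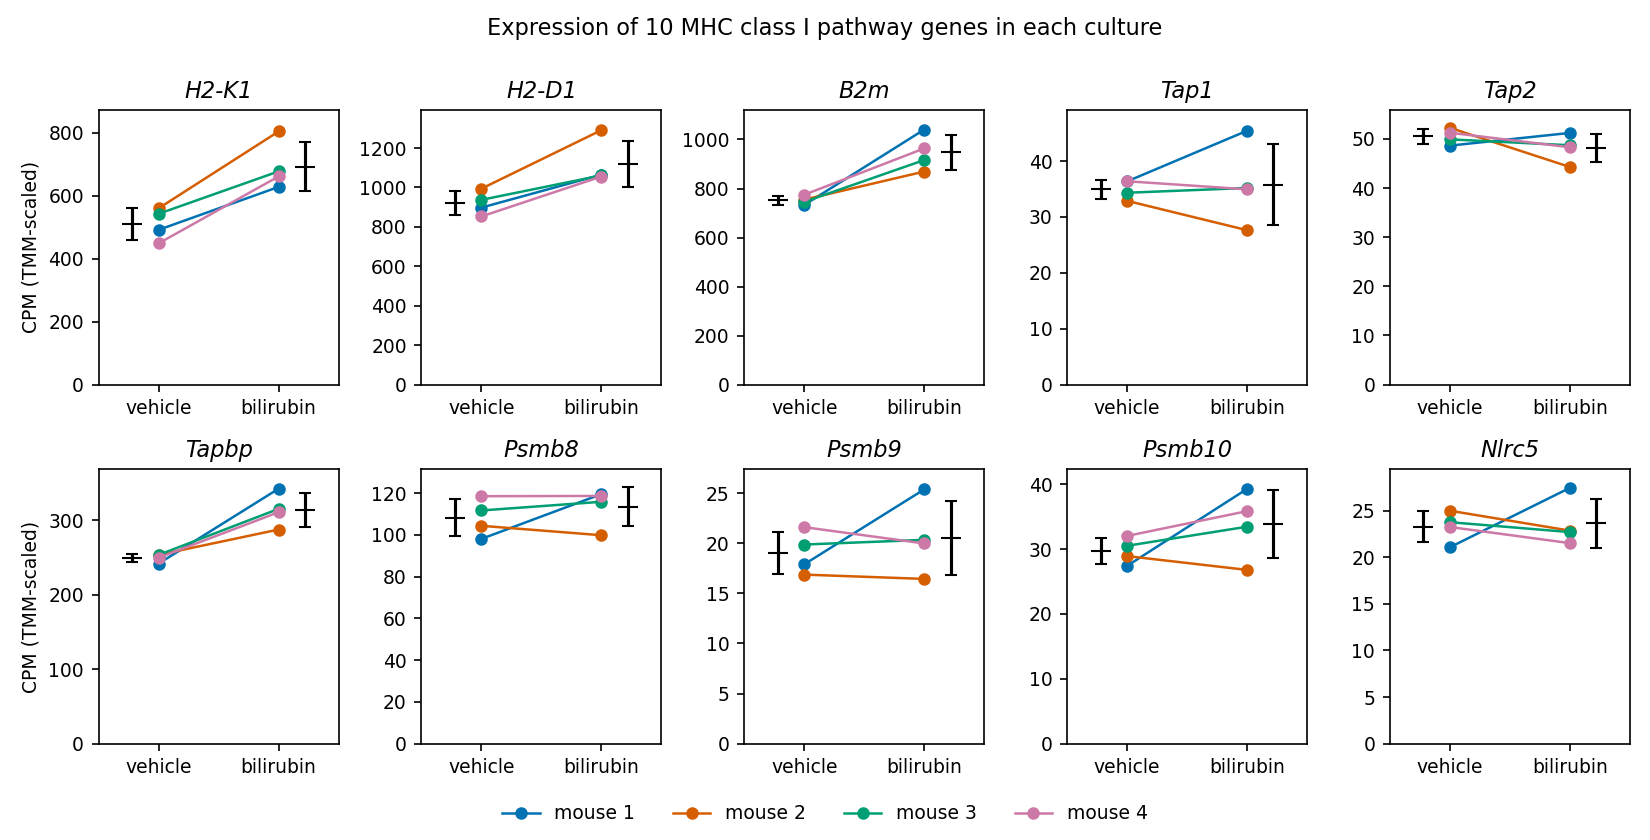
Expression of the 10 genes in each culture, in TMM-scaled CPM on linear axes from 0, with a line joining both cultures of a mouse and black bars giving the group mean and SD (n = 4). For H2-K1, H2-D1, B2m and Tapbp every bilirubin point lies above every vehicle point, whereas for the other 6 genes the groups overlap and mouse 1 has the steepest upward line.

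*H2-K1* and *H2-D1* encode the classical heavy chains, the polymorphic chains that bind peptide and meet the T cell receptor. *H2-K1* (ENSMUSG00000061232) lies on the minus strand at chr17:34214987-34219321 and *H2-D1* (ENSMUSG00000073411) on the plus strand at chr17:35481691-35486475, both in the MHC (positions are from GRCm39 with the GENCODE vM39 annotation). Class I promoters of the mouse are known for an NF-kB site beside an interferon-type element. The sequence upstream of a RefSeq start of *H2-K1* is shown because it carries both letter patterns, with the matches in capitals. They are, in order, the NF-kB consensus, GAANNGAAA on the opposite strand, and CCAAT on the opposite strand. The region is chr17:34219322-34219571 of GRCm39, minus strand, in the sequence of the reference strain and not of BALB/cJ.
H2-K1: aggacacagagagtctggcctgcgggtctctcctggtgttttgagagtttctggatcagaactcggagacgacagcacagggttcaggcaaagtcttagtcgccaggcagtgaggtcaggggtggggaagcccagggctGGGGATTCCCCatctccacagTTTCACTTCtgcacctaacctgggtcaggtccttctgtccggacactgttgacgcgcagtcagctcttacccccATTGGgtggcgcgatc

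The same pair of patterns stands in *H2-D1*, and *B2m* has the NF-kB consensus beside GAAANNGAA. The stretches that hold both patterns are set side by side because these 3 genes form the surface molecule and all 3 rose. That choice followed the outcome, and any part of the patterns in the rises was not tested. The stretches lie at chr17:34219403-34219432 (minus strand), chr17:35481899-35481928 (plus strand) and chr2:121978029-121978051 (plus strand).
H2-K1: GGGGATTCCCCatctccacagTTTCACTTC
H2-D1: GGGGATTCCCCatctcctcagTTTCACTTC
B2m: GAAACTGAAaatgGGAAAGTCCC
The *H2-K1* and *H2-D1* stretches were identical at 29 of 30 bases, with the substitution A18T counted from 1 at the 5′ end of the stretch, *H2-K1* first. Counted from the RefSeq start used for each gene, the stretches begin at -111 in *H2-K1*, -171 in *H2-D1* and -139 in *B2m*. GENCODE starts the transcripts of *H2-D1* and *B2m* further upstream, so that these stretches fall in an exon of 12 and 6 of their coding transcripts.

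Windows from 250 bases before to 50 after the RefSeq start were at hand for 8 of the 10 genes, *Tap2* and *Nlrc5* being the others, and both strands were searched. *H2-K1* had 2 such windows, and only the first listed was used. On the same scale, 8.46% of all 32851 windows hold the NF-kB consensus, 7.52% GAANNGAAA, 8.56% GAAANNGAA, 37.4% CCAAT and 8.3% TTCNNNGAA. GAANNGAAA was added to the patterns after the sequences had been seen, so its share is no test of its presence in *H2-K1* and *H2-D1*. The window of *Tapbp*, which also rose, held CCAAT and none of the others. *Tap1* and *Psmb9* held CCAAT, which is a single place shared by their overlapping windows. *Psmb8* held TTCNNNGAA, and *Psmb10* held none of the 5 patterns. In *H2-K1* and *H2-D1* the NF-kB consensus matched at adjacent bases and on both strands, which are overlapping matches of a single place. These are matches of letters, and binding was not measured.

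*H2-K1* stood at 491.5, 560.0, 542.5 and 448.7 CPM in the vehicle cultures of mice 1 to 4 and at 627.9, 804.1, 677.2 and 661.2 CPM in their bilirubin cultures. Every bilirubin culture was above every vehicle culture, and the mean went from 511 ± 50.5 to 693 ± 77.1 CPM (SD, n = 4). The log2 fold change was 0.44 (SE 0.05, adjusted p = 0.00101 in edgeR's quasi-likelihood test), the largest among the 10 genes.

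*H2-D1* stood at 897.7, 993.7, 937.1 and 852.9 CPM with vehicle and at 1065, 1291, 1061 and 1055 CPM with bilirubin. The groups did not overlap in CPM, and the bilirubin culture of mouse 2 was far above the other 3. The mean went from 920.4 ± 59.8 to 1118 ± 115 CPM (SD, n = 4), a log2 fold change of 0.28 (SE 0.04, adjusted p = 0.00363 in edgeR's quasi-likelihood test). In TPM, a unit that corrects for transcript length as well as depth, the lowest bilirubin culture (830.1) was below the highest vehicle culture (835.7).

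Near-identical sequence limits how firmly reads can be given to either heavy chain. Of the stretches of 31 bases in a coding transcript, 23.5% for *H2-K1* and 28.5% for *H2-D1* also occur in another gene, with 16.9% and 12.8% occurring in each other. The files' reference is that of C57BL/6, whose class I alleles differ from those of BALB/c, and BALB/c also carries the heavy chain gene *H2-L*, a symbol not in the table. Both cultures of a mouse share this mismatch, but its effect need not be equal in them. How reads of *H2-L* were placed cannot be checked here, and the part of the mismatch in the values was not tested. With the counts of 22 class I heavy chain genes summed before the fit, the log2 fold change was 0.33 (SE 0.04, adjusted p = 0.00137 in edgeR's quasi-likelihood test). *H2-K1* and *H2-D1* made up 80.9 to 85.3% of that sum.

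*B2m* encodes beta-2 microglobulin, the light chain without which heavy chains do not reach the surface stably, and lies outside the MHC (ENSMUSG00000060802, chr2:121977957-121983594, plus strand). Its level was 732.9, 754.5, 745.4 and 774.4 CPM with vehicle and 1040, 869.2, 916.0 and 963.6 CPM with bilirubin. The vehicle cultures lay close together, the bilirubin cultures were all higher, and mouse 1 had the largest rise. The mean went from 752 ± 17.5 to 947 ± 73.1 CPM (SD, n = 4), a log2 fold change of 0.33 (SE 0.05, adjusted p = 0.00443 in edgeR's quasi-likelihood test). The ratio of *B2m* to the sum of *H2-K1* and *H2-D1* in TPM was higher with bilirubin in mice 1 and 3 (0.795 to 0.913 and 0.743 to 0.755) and lower in mice 2 and 4 (0.733 to 0.608 and 0.901 to 0.817). Light and heavy chain transcripts both rose, and their ratio had no direction shared by the 4 mice. The annotation of *B2m* overlaps that of *Patl2* on the opposite strand.

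*Tapbp* encodes tapasin, which ties the empty heavy chain to the transporter and favours tightly bound peptides (ENSMUSG00000024308, chr17:34134873-34148267, plus strand). It stood at 241.8, 253.5, 253.5 and 249.6 CPM with vehicle and at 342.3, 287.5, 315.2 and 310.8 CPM with bilirubin. Again the groups did not overlap and mouse 1 changed most. The mean went from 249.6 ± 5.50 to 314 ± 22.5 CPM (SD, n = 4), a log2 fold change of 0.33 (SE 0.05, adjusted p = 0.00525 in edgeR's quasi-likelihood test). Without mouse 3 the adjusted p was 0.0563, with a log2 fold change of 0.33. In TPM the groups touched, the lowest bilirubin culture at 213.4 and the highest vehicle culture at 214.6. Its annotation overlaps that of *Zbtb22* on the same strand, so reads of the shared bases may belong to either gene.

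*Tap1* and *Tap2* encode the paired subunits of the peptide transporter, and neither passed the test. *Tap1* (ENSMUSG00000037321, chr17:34405996-34416199) stood at 36.4, 32.9, 34.3 and 36.4 CPM with vehicle and 45.4, 27.6, 35.2 and 34.9 CPM with bilirubin. It was higher with bilirubin in mouse 1 and lower in mouse 2, and the fitted log2 fold change was 0.02 (SE 0.08, adjusted p = 0.947 in edgeR's quasi-likelihood test). *Tap2* (ENSMUSG00000024339, chr17:34422501-34435829) stood at 48.6, 52.3, 49.9 and 51.3 CPM with vehicle and 51.2, 44.3, 48.7 and 48.3 CPM with bilirubin. It was lower in 3 of 4 mice, with a log2 fold change of -0.07 (SE 0.05, adjusted p = 0.532 in edgeR's quasi-likelihood test).

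*Psmb8*, *Psmb9* and *Psmb10* encode the catalytic subunits LMP7, LMP2 and MECL-1 of the immunoproteasome. *Psmb8* (ENSMUSG00000024338, chr17:34416690-34420428) stood at 98.1, 104.3, 112 and 119 CPM with vehicle and 119, 99.8, 116 and 119 CPM with bilirubin. The groups overlapped, and the log2 fold change was 0.07 (SE 0.06, adjusted p = 0.56 in edgeR's quasi-likelihood test). *Psmb9* (ENSMUSG00000096727, chr17:34400960-34406738, minus strand) stood at 17.9, 16.9, 19.9 and 21.6 CPM with vehicle and 25.4, 16.4, 20.3 and 20.0 CPM with bilirubin. Mouse 1 alone showed a clear rise, and the log2 fold change was 0.10 (SE 0.10, adjusted p = 0.651 in edgeR's quasi-likelihood test). *Psmb10* (ENSMUSG00000031897, chr8:106662362-106665077, minus strand) stood at 27.4, 28.9, 30.5 and 32.0 CPM with vehicle and 39.3, 26.8, 33.5 and 35.9 CPM with bilirubin. It was higher in 3 of 4 mice, with a log2 fold change of 0.18 (SE 0.09, adjusted p = 0.309 in edgeR's quasi-likelihood test).

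*Nlrc5* encodes the transactivator that drives class I genes through the SXY module of their promoters (ENSMUSG00000074151, chr8:95160984-95253900, plus strand). It stood at 21.1, 25.0, 23.8 and 23.3 CPM with vehicle and 27.5, 22.9, 22.7 and 21.5 CPM with bilirubin. It was higher in mouse 1 and lower in the other 3 mice, and the log2 fold change was 0.02 (SE 0.09, adjusted p = 0.938 in edgeR's quasi-likelihood test).

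*Psmb9*, *Tap1*, *Psmb8* and *Tap2* follow each other in 34870 bases of chromosome 17 with no other protein-coding gene between them, and none of these 4 passed the test. *Tap1* and *Psmb9* start from opposite strands and their annotations overlap by 743 bases. Whether the counting used the strand is not given in the sources used here, so reads of those bases cannot be assigned firmly to either gene. In all, 7 of the 10 genes lie on chromosome 17, and of these *H2-K1*, *H2-D1* and *Tapbp* rose.

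The mice differed in how the 10 genes moved. In mouse 1 all 10 genes were higher with bilirubin, with a median log2 change of 0.367. With the sign kept, 8 of the 10 had their highest log2 change there. Among these, *Tap2* changed by 0.07 in mouse 1 and by more, -0.24, in mouse 2. In mouse 2 only 4 genes were higher, with a median of -0.0506. In mice 3 and 4, 8 and 6 genes were higher, with medians of 0.0928 and 0.0823. The medians over all tested genes lay between -0.00111 and 0.00177 in the 4 mice.

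The 4 genes that rose changed by a mean of 0.402, 0.321, 0.278 and 0.375 on the log2 scale in mice 1 to 4. Within that set the mice differed by gene: *B2m* and *Tapbp* changed by 0.51 and 0.50 in mouse 1 and by 0.20 and 0.18 in mouse 2, whereas *H2-K1* and *H2-D1* changed by 0.35 and 0.25 in mouse 1 and by 0.52 and 0.38 in mouse 2. The other 6 changed by a mean of 0.348 in mouse 1 and by -0.138, 0.0256 and -0.034 in mice 2 to 4. These sets were formed from the test's outcome, so the contrast between them is a description. Without mouse 1 the fitted log2 fold changes of *Tap1*, *Psmb8*, *Psmb9* and *Nlrc5* were negative (-0.089, -0.0050, -0.042 and -0.10), and none passed the test. The depth gap between the cultures of mouse 1 goes with this pattern, and its part in it was not tested.

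**Figure D2:**
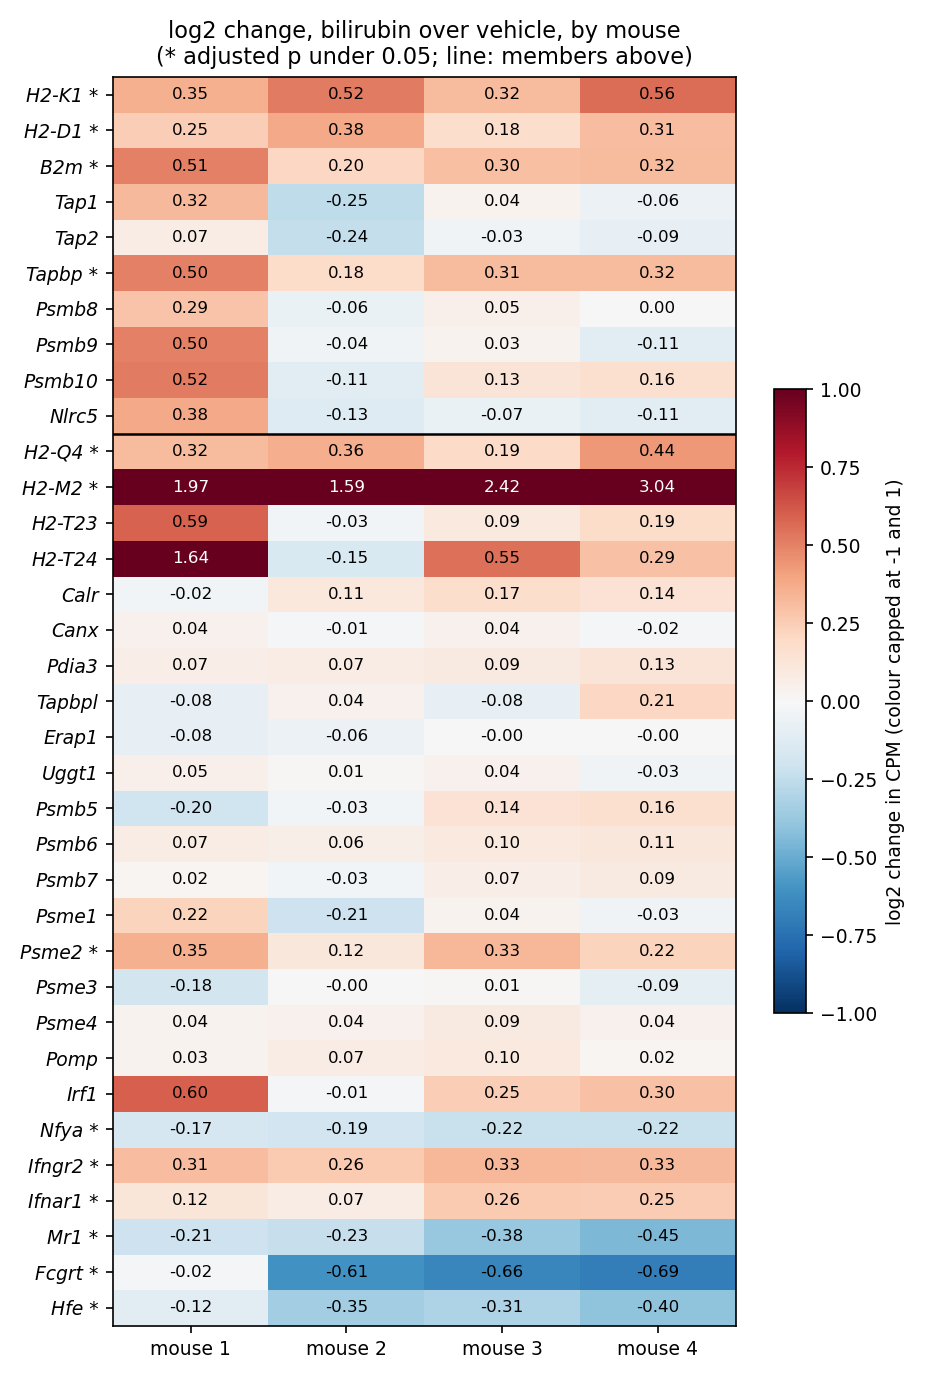
The log2 change in CPM, bilirubin over vehicle, for each mouse (columns) and gene (rows), with the 10 genes above the black line and other pathway genes below it, red for higher and blue for lower, and an asterisk for an adjusted p under 0.05. H2-K1, H2-D1, B2m and Tapbp are red in all 4 mice, whereas the other 6 genes of the top block have a mean of 0.348 in mouse 1 and of -0.138 in mouse 2.

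Per transcript length, the levels spanned a wide range in vehicle cultures. In TPM the order of the group means was *B2m* (1693 ± 32.5), *H2-K1* (1369 ± 121), *H2-D1* (779 ± 47.4), *Psmb8* (209 ± 15.4), *Tapbp* (199.5 ± 10.7), *Psmb10* (53.7 ± 5.52), *Tap2* (29.9 ± 1.21), *Psmb9* (27.2 ± 3.20), *Tap1* (26.1 ± 5.76) and *Nlrc5* (8.65 ± 2.55, SD, n = 4). The light and heavy chains were thus far above the transporter subunits and *Nlrc5*. The vehicle ranges of *Psmb8* and *Tapbp* overlapped, as did those of *Tap2* with *Psmb9* and of *Psmb9* with *Tap1*. Compared within each mouse, *Tap2* was above *Psmb9* in every vehicle culture, whereas the order in the other pairs differed between mice. Differences between these neighbours were not tested. *B2m* ranked 60 among all genes in vehicle cultures and *Nlrc5* ranked 8465.

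The TPM of *H2-K1* rests in part on how its reads were shared among transcripts. A retained-intron transcript of 457 bases took 20.5 to 24.8% of its reads and, being short, 41.6 to 49.0% of its TPM. *H2-K1* had fewer counts than *H2-D1* in every library but the higher TPM. *Tap1* in the vehicle culture of mouse 1 was at 34.7 TPM beside 22.3 to 24.2 in the other vehicle cultures, although its CPM was alike in all 4.

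The exchange of catalytic subunits was read from the ratio of each inducible subunit to the standard subunit it replaces, in TPM. *Psmb8* over *Psmb5* was 1.28, 1.32, 1.44 and 1.51 with vehicle and 1.83, 1.32, 1.34 and 1.35 with bilirubin. *Psmb10* over *Psmb7* was 0.412, 0.355, 0.416 and 0.430 with vehicle and 0.550, 0.381, 0.395 and 0.408 with bilirubin. *Psmb9* over *Psmb6* was 0.0686, 0.0553, 0.0649 and 0.0705 with vehicle and 0.0884, 0.0538, 0.0633 and 0.0618 with bilirubin. The transcript for LMP7 was thus more abundant than that of its standard counterpart in every culture, whereas those for LMP2 and MECL-1 were less abundant than theirs.

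The mean log2 changes of these ratios were 0.06 ± 0.31 for *Psmb8* over *Psmb5*, 0.03 ± 0.24 for *Psmb9* over *Psmb6* and 0.09 ± 0.23 for *Psmb10* over *Psmb7* (SD, n = 4). The exact two-sided permutation test over 4 pairs gave p = 1, 1 and 0.625, and 1 for all 3 after Benjamini-Hochberg adjustment, and the smallest p it can give is 1 in 8. Mouse 1 had the highest ratio in its bilirubin culture for all 3 pairs. Without it the mean log2 changes were -0.090, -0.088 and -0.016. The standard subunits themselves had fitted log2 fold changes of 0.02 (*Psmb5*), 0.09 (*Psmb6*) and 0.04 (*Psmb7*), and none passed the test.

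**Figure D3:**
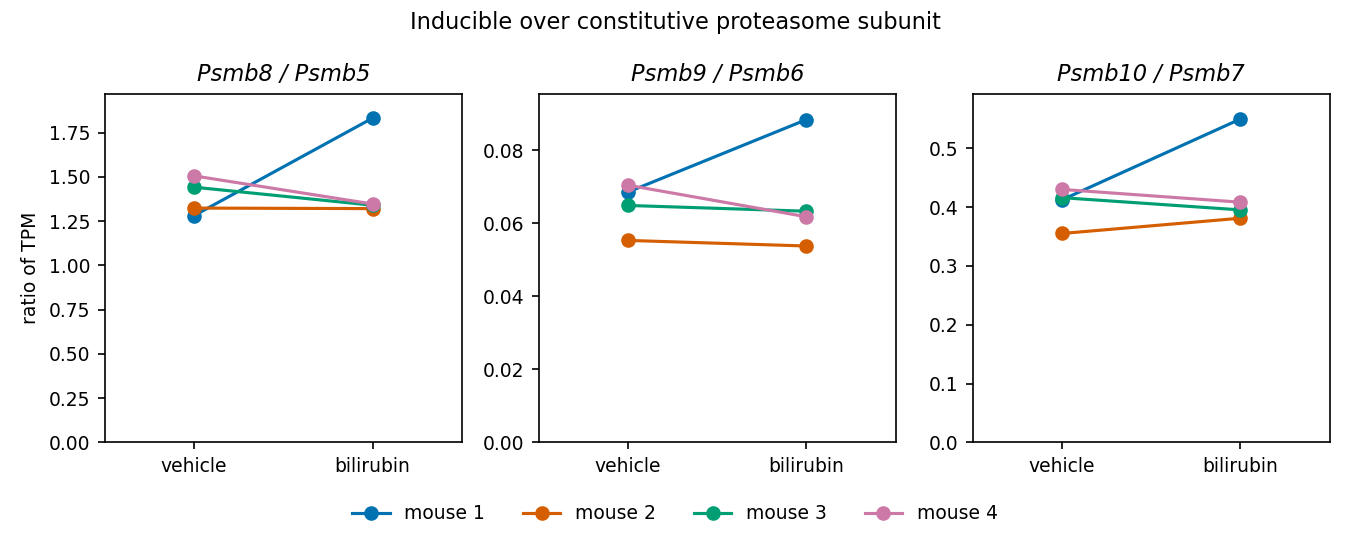
Ratio of TPM of each inducible to its standard proteasome subunit in each culture, on linear axes from 0, with a line joining both cultures of a mouse. Only mouse 1 rises in all 3 panels, reaching 1.83, 0.0884 and 0.550 with bilirubin. Mice 3 and 4 fall in all 3 panels, and mouse 2 rises only for Psmb10 over Psmb7. Mice 2 to 4 have log2 changes between -0.19 and 0.10.

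Other genes of the pathway were taken from lists by function. The lists were chosen with earlier results of these data known, so the counts of called genes in them are a description. Of all tested genes, 4.49% were called higher and 3.04% lower. Among the activators and assembly factors of the proteasome, 1 of 5 rose: *Psme2*, encoding the beta subunit of the interferon-inducible activator PA28. It stood at 61.7, 64.3, 66.9 and 71.9 CPM with vehicle and 78.8, 69.7, 84.1 and 83.8 CPM with bilirubin, higher in 4 of 4 mice, with a log2 fold change of 0.26 (SE 0.05, adjusted p = 0.0139 in edgeR's quasi-likelihood test). The call was lost without mouse 3 (adjusted p = 0.13), without mouse 4 (0.07) and without the replicate block (0.0524). *Psme1*, its partner subunit in PA28, had a log2 fold change of 0.00 (adjusted p = 0.983), and *Psme3*, *Psme4* and *Pomp* had -0.06, 0.05 and 0.06.

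None of the 6 partners of peptide loading and quality control passed the test, beside 7.53% of all tested genes called. Their median log2 fold change was 0.02. The chaperones *Calr* and *Canx* had 0.10 and 0.01, and *Pdia3*, which forms disulfide bonds in the loading complex, had 0.09, higher in 4 of 4 mice (adjusted p = 0.139 in edgeR's quasi-likelihood test). *Tapbpl*, encoding the tapasin relative TAPBPR, had 0.02 beside the 0.33 of *Tapbp*. The peptide-trimming enzyme gene *Erap1* had -0.04 and the quality control gene *Uggt1* 0.02.

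Of the nonclassical class I genes, 13 were tested, with a median log2 fold change of 0.25. *H2-Q4* and *H2-M2* rose and none was called lower, beside 4.49% called higher and 3.04% called lower of all tested genes. *H2-Q4* stood at 139, 158, 157 and 138 CPM with vehicle and 173, 202, 179.8 and 186 CPM with bilirubin. All 4 bilirubin cultures were higher, and its log2 fold change of 0.33 (SE 0.04, adjusted p = 0.00293 in edgeR's quasi-likelihood test) was close to those of *H2-D1* and *B2m*. *H2-M2* was rare, with 15, 27, 26 and 12 counts in vehicle libraries and 43, 78, 128 and 93 in bilirubin libraries, a log2 fold change of 2.23 (SE 0.28, adjusted p = 0.00225 in edgeR's quasi-likelihood test). These heavy chains are close relatives of *H2-K1* and *H2-D1* and may share reads with them.

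The remaining *H2-Q* and *H2-T* genes tested did not pass. *H2-Q6* had a log2 fold change of 0.32 and was higher in 4 of 4 mice (adjusted p = 0.0684 in edgeR's quasi-likelihood test). *H2-T23*, encoding the Qa-1 heavy chain, had 0.21 (adjusted p = 0.225), and *H2-T24* had 0.60 with an SE of 0.24 (adjusted p = 0.195). *H2-T24* again split by mouse, with log2 changes of 1.64, -0.15, 0.55 and 0.29 in mice 1 to 4. Of the others, *H2-T10* and *H2-T22* had 0.06 each, and *H2-Q1*, *H2-Q2*, *H2-Q5*, *H2-Q7* and *H2-Q10* had 0.14 to 0.26. *H2-M3*, named after its values were seen, had -0.22 and was higher in 1 of 4 mice (adjusted p = 0.327 in the same test).

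Class I-like heavy chains outside the MHC also pair with beta-2 microglobulin. Of these, 3 of the 4 tested fell, beside 3.04% of all tested genes. *Fcgrt*, encoding the neonatal Fc receptor, stood at 31.3, 34.3, 32.3 and 33.0 CPM with vehicle and 30.9, 22.5, 20.5 and 20.4 CPM with bilirubin. The log2 fold change was -0.49 (SE 0.11, adjusted p = 0.0293 in edgeR's quasi-likelihood test), with almost no change in mouse 1. *Mr1*, which presents metabolites to MAIT cells, fell by 0.32 (SE 0.06, adjusted p = 0.0146 in the same test) and was lower in 4 of 4 mice. *Hfe*, a regulator of iron uptake, fell by 0.29 (SE 0.06, adjusted p = 0.0214 in the same test), also lower in 4 of 4 mice. The light chain thus rose beside the classical heavy chains while these 3 partners fell.

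The falls were less firm than the rises of the surface molecule. Without mouse 3 the adjusted p-values were 0.196 for *Fcgrt*, 0.118 for *Mr1* and 0.136 for *Hfe*, and without mouse 4 they were 0.162, 0.0911 and 0.136. Without mouse 2 they were 0.133 for *Fcgrt* and 0.103 for *Hfe*. Without the replicate block they were 0.251 for *Mr1* and 0.205 for *Hfe*.

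**Figure D4:**
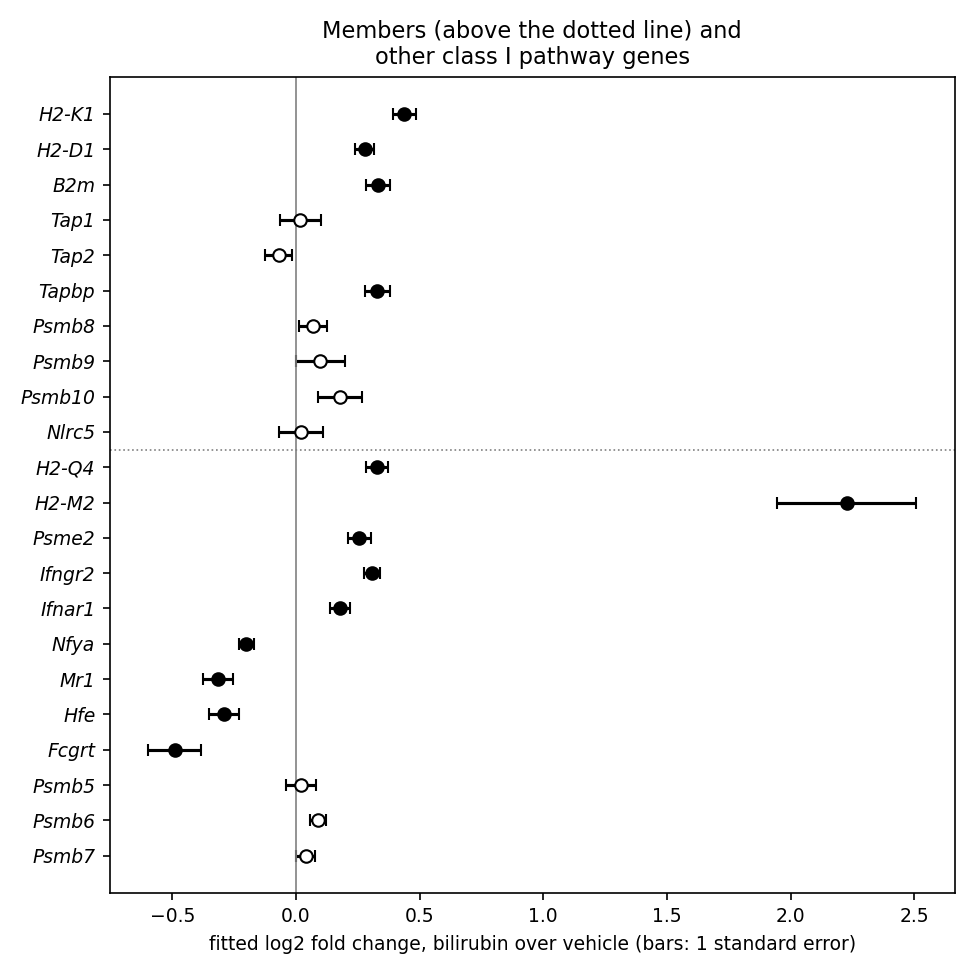
Fitted log2 fold change, bilirubin over vehicle, with bars of 1 SE for the 10 genes (above the dotted line) and for the other pathway genes called, with the standard proteasome subunits for comparison. Filled points passed an adjusted p of 0.05: H2-K1, H2-D1, B2m and Tapbp lie between 0.28 and 0.44, H2-M2 lies at 2.23, and Mr1, Hfe, Fcgrt and Nfya lie below 0.

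Regulators of these genes were taken from lists of SXY module factors and of interferon signalling. In the SXY list 1 of 8 genes was called lower and 0 higher, beside 3.04% and 4.49% of all tested genes. Of 8 genes whose products act at the SXY module, *Nfya*, encoding a CCAAT-binding subunit, fell by 0.20 on the log2 scale (SE 0.03, adjusted p = 0.00671 in edgeR's quasi-likelihood test), from 203 to 210.1 CPM with vehicle to between 176 and 184 with bilirubin. It was lower in 4 of 4 mice, and its adjusted p was 0.0705 without mouse 3 and 0.0666 without mouse 4. *Rfx5*, a subunit of the RFX complex that binds the module, had -0.09. *Ciita*, the class II transactivator, was near the detection floor with 2 to 11 counts with vehicle and 12 to 21 with bilirubin. It met the filter on low counts only through its bilirubin cultures, so its fold change is a description and no evidence of a rise. It did not pass (log2 fold change 1.84, SE 0.50, adjusted p = 0.0683 in edgeR's quasi-likelihood test).

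In the interferon signalling list, 2 of 14 genes rose and none fell, beside 4.49% and 3.04% of all tested genes. The median log2 fold change of the list was 0.08. *Ifngr2*, encoding a chain of the interferon-gamma receptor, stood at 94.4, 93.1, 93.9 and 93.1 CPM with vehicle and 117, 112, 118 and 117 CPM with bilirubin. The values within each group were close and the groups far apart, with a log2 fold change of 0.31 (SE 0.03, adjusted p = 0.00114 in edgeR's quasi-likelihood test). *Ifnar1*, a chain of the type I interferon receptor, rose by 0.18 (SE 0.04, adjusted p = 0.0392 in the same test) and was higher in 4 of 4 mice. That call was lost without mouse 2 (adjusted p = 0.0568), mouse 3 (0.241) or mouse 4 (0.224).

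*Irf1*, encoding an interferon-induced transcription factor of class I genes, had a log2 fold change of 0.29 and did not pass (SE 0.09, adjusted p = 0.106 in edgeR's quasi-likelihood test), with 0.60, -0.01, 0.25 and 0.30 in mice 1 to 4. Across mice 1 to 4 the list had median changes of 0.263, 0.0168, 0.080 and 0.0428, so mouse 1 was highest here as it was for the 6 members that did not pass. Transcripts of the 2 ligands examined were at or below the floor of 3 counts in every library: *Ifng* had 0 counts in all 8, and *Ifnb1* had at most 2. Other interferon genes were not examined here.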

How the data were processed

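RNA was sequenced from a vehicle and a bilirubin culture of each of 4 mice (8 libraries). Per the submitters' notes and the methods, reads were demultiplexed with bcl2fastq 2.20.0.422, trimmed with Trim Galore 0.6.7 and Cutadapt 3.4, aligned to GRCm39 with STAR 2.7.9a, and quantified with Salmon 1.10.1. The gene table the authors deposited holds Salmon's expected (estimated) counts, not scaled for depth or length. For each library the authors also deposited estimated counts, TPM and effective length per transcript, and these were summed per gene symbol.

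The rounded counts went into edgeR 4.0.16 (R 4.3.3), with TMM scaling, the filterByExpr filter (10 counts, 15 in total), mouse and treatment in the model, and a quasi-likelihood test. Benjamini-Hochberg adjustment covered 13722 genes, with calls at 0.05. Standard errors were derived from each F statistic. Log2 CPM profiles used a prior count of 2, and TPM ratios, tested by exact sign-flip permutation, were repeated with CPM and with a pseudocount of 1. The labels give each culture a number from 1 to 4. Equal numbers were taken as the same mouse, because the methods use the mouse as a covariate. Deviations from group means correlated at 0.108, 0.134, 0.108 and -0.0053 within mice 1 to 4, and at -0.0279 on average between mice. The highest correlation between different mice was 0.0751, so these values support the pairing only weakly. The script was tested on simulated data.

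Alternatives were treatment alone, DESeq2 1.42.0, limma 3.58.1 (voom), DESeq2 size factors, library size alone, other filters, an offset for transcript length, class I heavy chains summed, and each mouse left out. The 10 genes and all lists were chosen with earlier results of these data known. Beside the 10 genes, the text names all loading partners, standard subunits and proteasome activators, at most 3 called genes of each other list with the smallest adjusted p, fixed regulators, *H2-Q* and *H2-T* genes, and the 5 genes of nearest pattern. A fixed regulator is not reported here. *H2-Q8*, *H2-Q9* and *H2-T9* were listed but are not symbols of the table. Promoter windows are RefSeq's (GRCm38.p6), each matched exactly to a single place in GRCm39, and GAANNGAAA was added to the patterns after the sequences had been seen.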

Additional observations from a re-analysis of the deposited data

Results flagged for a closer look

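Each of the 10 genes was examined in 3 groups of 4 values for a sample standing far from the rest (a gap over Dixon's critical value for 4 samples), which chance gives in about 1 in 20 groups. *H2-D1* in the bilirubin culture of mouse 2 was at a log2 CPM of 10.3, its 1291 CPM lying above the other 3 bilirubin cultures at 1055 to 1065, with a gap of 0.956 of the range. The log2 change of *Nlrc5* in mouse 1 was 0.381, with the other 3 mice between -0.129 and -0.066 and a gap of 0.876 of the range.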

How the results depend on the processing

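*H2-K1* and *H2-D1* passed under all 13 alternatives (log2 fold changes of 0.33 to 0.48 and 0.24 to 0.33), *B2m* under all 12 (0.27 to 0.37) and *Tapbp* under 11 of 12 (0.26 to 0.38), and the other 6 genes under none. The call of 4 genes became 3 without mouse 3. The 1033 changed genes (616 higher, 417 lower) became 686 (228 lower) without the replicate block, in which the same 4 genes were called, 1692 (774 lower) without a filter, and 588 (377 higher, 211 lower) with the length offset. Leaving out a mouse gave 377 (without mouse 3) to 1910 (without mouse 1) genes, with 265 to 1026 higher and 112 to 884 lower. The other pathway genes called went from 9 to 17 without a filter, to 5 with the length offset and to 3 without mouse 3 or mouse 4. *Tap1* turned negative under library size alone (-0.010) and the length offset (-0.028), as did *Nlrc5* (-0.0070 and -0.0060). Leaving out a mouse gave log2 changes of -0.089 to 0.10 for *Tap1*, -0.10 to 0.068 for *Nlrc5*, -0.0050 to 0.11 for *Psmb8* and -0.042 to 0.17 for *Psmb9*, and of -0.090 to 0.14, -0.088 to 0.097 and -0.016 to 0.15 for the ratios *Psmb8*/*Psmb5*, *Psmb9*/*Psmb6* and *Psmb10*/*Psmb7*, each lowest without mouse 1. The causes were not tested. *Ifnar1* was also lost under library size alone and the length offset (adjusted p = 0.0647 in both), and *Mr1*, *Fcgrt* and *Hfe* under the length offset (0.0549, 0.0647 and 0.0677). The 6 genes not called had SEs of 0.05 to 0.10 on the log2 scale, and depth limits rare genes such as *Ciita*.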

Other observations

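Cytosolic peptidases, which trim or destroy peptides after the proteasome, showed no call among 6 genes tested by edgeR's quasi-likelihood test. The share called over all tested genes was 7.53%, and the median log2 fold change of the peptidases was -0.002. The NF-kB subunit genes *Rela* and *Nfkb1*, named after their values were seen, had log2 fold changes of 0.11 and 0.16, were higher in 4 of 4 mice each, and did not pass (adjusted p = 0.154 and 0.0702 in the same test). The other NF-kB subunit genes are not reported here.

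The genes whose log2 CPM over the 8 libraries lay nearest to the mean profile of the 10 genes were *Dpep2*, *Pnp*, *Unc93b1*, *Chmp4b* and *Rttn*. Their root mean square differences from it were 0.0238, 0.025, 0.0262, 0.0303 and 0.0317 on the log2 scale, beside a median of 0.151 over 10896 genes. None of the 5 passed the test of bilirubin against vehicle (adjusted p of 0.099 to 0.288 in edgeR's quasi-likelihood test). They were picked by their pattern over the same 8 libraries, treatment included, so this is a description and no separate result.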
